A study of Mus musculus with 9 samples.

Results

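The genes described here are 10 genes best known from the contractile apparatus of smooth muscle, most of them established targets of serum response factor (SRF): Tagln, Cnn1, Cnn2, Myh11, Myl9, Csrp1, Csrp2, Smtn, Lmod1 and Des. The 10 were named with earlier results of these data known, and were found by symbol among the 38293 genes of the count table. All 10 were also among the 15318 genes tested. The series compared ventricles of mice at postnatal day 7 (P7) by poly(A)-selected RNA-Seq, with 5 Arid1a f/f control libraries and 4 libraries of aMHC-Cre;Arid1a f/f animals (Arid1a cKO). Both groups were homozygous for the floxed Arid1a allele, and the controls were littermates labelled without Cre. The αMHC promoter drives Cre in cardiomyocytes, so the gene was deleted in those cells, while the RNA came from whole ventricles that also hold vascular smooth muscle cells, pericytes, fibroblasts and endothelium. The labels name no line or clone beyond this, no batch and no pooling of animals.

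In smooth muscle, calponins and transgelin bind actin filaments, smooth muscle myosin pulls on them, and desmin filaments and LIM-domain proteins tie the apparatus to its anchoring sites. Transcription of these genes is classically driven by SRF, which binds CArG boxes together with myocardin or the myocardin-related factors MRTF-A and MRTF-B. Several of the genes are also expressed in the embryonic myocardium, and Des and Smtn are expressed in mature striated muscle too, so in a ventricle their transcripts can come from more than 1 cell type.

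Libraries held 31011055 to 36616381 counts in controls and 31557840 to 40073801 in cKO hearts. Levels are given as CPM, counts per 1e6 of a library total scaled by the trimmed mean of M-values (TMM), with the SD between libraries. Arid1a itself was 128.05 to 148.1 CPM in control and 100.3 to 112.9 CPM in cKO hearts, with no overlap. By the level of Rps3a3, a copy of a ribosomal protein gene, the libraries split into 2 sets, each with both genotypes, and no label explains the split. Controls 1 and 2 and cKO 1 to 3 held 0.345 to 0.521 CPM of Rps3a3, and controls 3 to 5 and cKO 4 held 99.7 to 112.3 CPM. These are called the Rps3a3-low and Rps3a3-high libraries. Xist was high in controls 2 and 3 and cKO 3 and 4 and at most 0.283 CPM elsewhere, so each genotype included both sexes. In bulk tissue, fewer cells of a type and less RNA per cell cannot be told apart.

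Of the 10 genes, 6 rose in Arid1a cKO hearts and 1 fell, and among these 10 Cnn1 rose the most, followed by Myl9, Csrp1 and Csrp2. Cnn1 rose 6.87-fold, Myl9 3.0-fold, Csrp1 1.84-fold and Csrp2 1.82-fold, and for each of them every cKO library lay above every control library. Cnn2 and Des rose by less than 1.5-fold, and Smtn fell by less than 1.5-fold. Tagln, Myh11 and Lmod1, which include the most widely used markers of differentiated smooth muscle, did not pass the test. A gene was called when its p-value in edgeR's quasi-likelihood test was under 0.05 after Benjamini-Hochberg adjustment over the tested genes and its fold change was over 1.5. By that rule 4 of the 10 genes were called higher, beside 4.01% of all tested genes, and 0 were called lower, beside 2.72%. DESeq2 also called 4 higher and 0 lower, beside 4.41% and 2.99% of all tested genes. At an unadjusted p under 0.05 in edgeR's test 7 of the 10 were higher and 2 lower, beside 15.2% and 14.5%. By the adjusted p alone 6 passed as higher, beside 8.25% of all tested genes, and 1 as lower, beside 8.03%. The groups did not overlap for 5 genes, all higher in cKO hearts, beside 8.16% of all tested genes, and for 0 in the lower direction, beside 8.58%. The median log2 fold change of the 10 genes was 0.50, and that of all tested genes was 0.01.

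**Figure D1:**
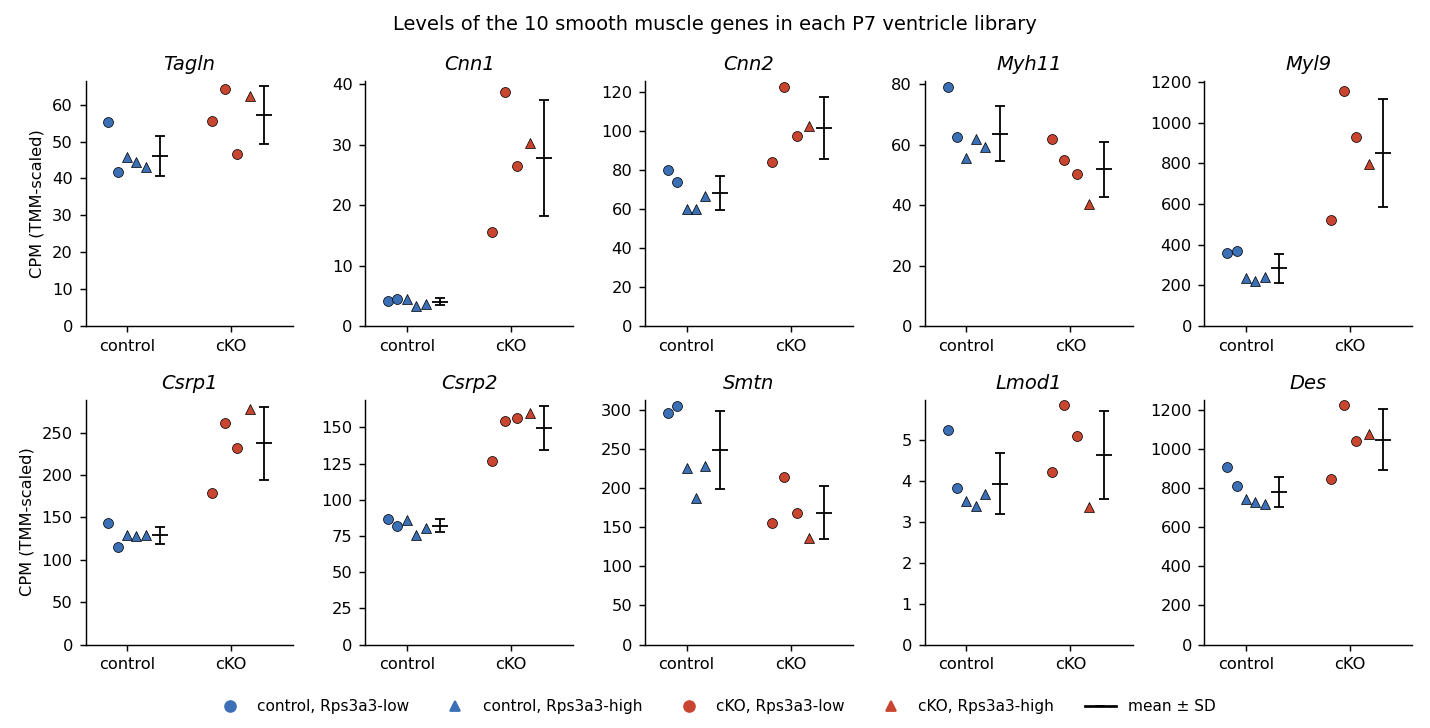
Level of each of the 10 genes in every library, in CPM on linear axes that start at 0, with controls in blue and Arid1a cKO in red. Circles are Rps3a3-low and triangles Rps3a3-high libraries, and bars give the mean ± SD. The red points lie clear of the blue ones for Cnn1, Cnn2, Myl9, Csrp1 and Csrp2, while the groups overlap for Tagln, Myh11, Smtn, Lmod1 and Des.

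Promoter windows were read from RefSeq (build GRCm38.p6), each running from 250 bases before to 50 bases after an annotated transcription start. Windows were found for 7 of the 10 genes, 8 in all, and none were at hand for Tagln, Myh11 and Csrp2. A CArG box was searched as 10 bases with CC at one end, GG at the other and only A or T between them, which reads the same way on both strands. The core motif of the TEAD factors was searched as GGAATG on either strand, which reads CATTCC on the other strand. CArG boxes with 1 mismatch were searched as well, and no matches of different motifs overlapped in these windows. The windows of Cnn1 and Myl9 are shown because these genes rose the most, that of Cnn2 because it holds a CArG box, and that of Smtn because this gene alone fell. Capitals mark a CArG box without mismatch or a TEAD core, and sequences run 5′ to 3′ on the strand of the gene. The windows lie at chr9:22099003-22099302 for Cnn1, chr2:156775214-156775513 for Myl9 and chr10:79988350-79988649 for Cnn2, all on the plus strand, and at chr11:3539243-3539542 on the minus strand for Smtn.
Cnn1: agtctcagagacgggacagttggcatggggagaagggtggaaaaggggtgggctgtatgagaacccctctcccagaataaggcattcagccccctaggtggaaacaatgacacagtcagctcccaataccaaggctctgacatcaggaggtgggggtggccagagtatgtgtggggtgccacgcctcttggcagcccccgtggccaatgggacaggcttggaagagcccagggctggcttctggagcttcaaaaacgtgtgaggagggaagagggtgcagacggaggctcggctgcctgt
Myl9: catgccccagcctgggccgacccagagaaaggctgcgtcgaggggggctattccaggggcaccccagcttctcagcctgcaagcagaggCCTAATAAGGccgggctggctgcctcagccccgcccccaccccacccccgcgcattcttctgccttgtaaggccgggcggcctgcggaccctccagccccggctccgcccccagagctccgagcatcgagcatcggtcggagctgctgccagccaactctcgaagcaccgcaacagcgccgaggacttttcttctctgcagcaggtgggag
Cnn2: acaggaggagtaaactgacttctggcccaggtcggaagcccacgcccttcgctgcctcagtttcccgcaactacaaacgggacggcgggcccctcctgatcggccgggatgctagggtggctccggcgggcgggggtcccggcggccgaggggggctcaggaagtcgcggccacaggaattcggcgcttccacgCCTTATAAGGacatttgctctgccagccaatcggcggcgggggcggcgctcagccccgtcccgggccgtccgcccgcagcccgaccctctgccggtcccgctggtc
Smtn: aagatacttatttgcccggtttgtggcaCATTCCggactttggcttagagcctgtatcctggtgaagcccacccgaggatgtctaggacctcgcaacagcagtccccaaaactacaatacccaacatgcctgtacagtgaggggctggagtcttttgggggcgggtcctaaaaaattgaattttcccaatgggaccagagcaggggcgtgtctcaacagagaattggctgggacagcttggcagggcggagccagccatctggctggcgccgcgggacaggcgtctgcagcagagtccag

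The Myl9 window held a CArG box, CCTAATAAGG, 161 bases before the start, and the Cnn2 window held another, CCTTATAAGG, 56 bases before the start. With 1 mismatch allowed, Myl9 had a further match, CCTTGTAAGG, 99 bases before the start, and Lmod1 had matches at 189 and 164 bases before its start. The TEAD core lay 222 bases before the start in Smtn and 130 bases before it in Lmod1. The windows of Cnn1, Csrp1 and Des held none of these motifs. Of 32851 RefSeq windows of the same length over all genes, 1.629% held a CArG box, 21.114% held one with at most 1 mismatch and 14.663% held the TEAD core. The matches are letters in a window and say nothing of binding, and a window without one says nothing of sites elsewhere.

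Calponins and transgelin belong to one actin-binding family. Cnn1 (ENSMUSG00000001349, chr9:22099216-22109630, plus strand) encodes calponin 1, the isoform of differentiated smooth muscle. It was measured at 4.18, 4.52, 4.49, 3.37 and 3.62 CPM in controls 1 to 5 and at 15.6, 38.7, 26.4 and 30.3 CPM in cKO 1 to 4. The lowest cKO library was thus more than 3 times as high as any control. The mean went from 4.04 ± 0.519 to 27.7 ± 9.603 CPM (SD, n = 5 and 4), a log2 fold change of 2.78 (± 0.22 SE, edgeR adjusted p = 1.15e-05). Among all tested genes it ranked at 35 by the size of its rise. Each library held 107 to 1461 reads of Cnn1.

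Cnn2 (ENSMUSG00000004665, chr10:79988584-79996062, plus strand) encodes calponin 2, which is found in smooth muscle and in many non-muscle cells. Its levels were 80.0, 74.0, 60.3, 60.0 and 66.6 CPM in controls 1 to 5 and 84.3, 122.6, 97.7 and 102.8 CPM in cKO 1 to 4. The groups did not overlap, although cKO 1 exceeded control 1 by little. Cnn2 rose by 0.58 on the log2 scale (± 0.11 SE, edgeR adjusted p = 0.0046), a 1.49-fold change that missed the fold threshold. It passed that threshold in 6 of 20 alternative fits, which were upper-quartile scaling, a filter at a mean of 1 CPM and the fits without control 1, control 2, cKO 1 or cKO 3. In the Rps3a3-low libraries alone it changed by 0.40 (adjusted p = 0.209).

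Tagln (ENSMUSG00000032085, chr9:45929619-45936058, minus strand) encodes transgelin, also called SM22α, an early marker of smooth muscle that the embryonic heart expresses as well. Its levels were 55.3, 41.8, 45.8, 44.4 and 43.0 CPM in controls 1 to 5 and 55.6, 64.4, 46.7 and 62.2 CPM in cKO 1 to 4. Control 1 lay within the range of the cKO libraries. The log2 fold change was 0.31 (± 0.11 SE, edgeR adjusted p = 0.0672). In DESeq2's test the adjusted p was 0.0405, without control 1 it was 0.0200 and without cKO 3 it was 0.0256, so the outcome for Tagln depended on the tool and on single libraries. Its exons share 1241 of 1988 bases with the antisense gene Gm48529, which was not analysed here, and 108 bases with Pcsk7 on the other strand. Pcsk7 held 1166 to 1641 reads a library and Tagln 1329 to 2571. The strand setting of the counting is not given in the sources used here, so reads of such partners cannot be told apart from those of Tagln.

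Myosin and its light chain are the motor of the apparatus. Myl9 (ENSMUSG00000067818, chr2:156775420-156781658, plus strand) encodes the smooth muscle regulatory light chain, whose phosphorylation switches smooth muscle myosin on. It was measured at 357.7, 367.4, 233.9, 221.8 and 240.2 CPM in controls 1 to 5 and at 523.1, 1158, 930.3 and 797.6 CPM in cKO 1 to 4. Within the controls, the Rps3a3-low libraries 1 and 2 lay above the Rps3a3-high libraries 3 to 5. Myl9 climbed from 284.2 ± 71.9 to 852.2 ± 265 CPM (SD, n = 5 and 4), by 1.58 on the log2 scale (± 0.25 SE, edgeR adjusted p = 0.00317). In the 5 Rps3a3-low libraries alone Myl9 changed by 1.27 (adjusted p = 0.162) although the 2 groups did not overlap there either.

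Myh11 (ENSMUSG00000018830, chr16:14194535-14291372, minus strand) encodes smooth muscle myosin heavy chain, the marker most restricted to smooth muscle. Controls 1 to 5 held 79.1, 62.5, 55.7, 61.7 and 59.4 CPM of Myh11, and cKO 1 to 4 held 61.7, 54.8, 50.4 and 40.2 CPM. Of the cKO libraries, cKO 1 lay within the range of the controls, and the other three lay below every control. The log2 fold change was -0.30 (± 0.13 SE, edgeR adjusted p = 0.139). A fit that included the library set gave -0.42 with an adjusted p of 0.00746.

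Csrp1 and Csrp2 encode cysteine-rich LIM-domain proteins, which bind actin-crosslinking partners and can act with SRF in the nucleus. Csrp1 (ENSMUSG00000026421, chr1:135720061-135752232, plus strand) was measured at 143.0, 114.5, 129.3, 128.3 and 129.7 CPM in controls 1 to 5 and at 179.1, 261.5, 232.0 and 277.6 CPM in cKO 1 to 4. Csrp2 (ENSMUSG00000020186, chr10:110919789-110939622, plus strand) was measured at 86.9, 81.8, 86.1, 75.5 and 80.2 CPM in controls 1 to 5 and at 127.0, 154.2, 156.7 and 160.3 CPM in cKO 1 to 4. Neither gene overlapped between the groups, and cKO 1 was the lowest cKO library for both. Csrp1 rose by 0.88 on the log2 scale (± 0.11 SE, edgeR adjusted p = 0.000278) and Csrp2 by 0.87 (± 0.08 SE, edgeR adjusted p = 1.34e-05). Csrp2 had the smallest spread of the 10 genes, with an SD of 5.66% of the mean in controls and 10.2% in cKO hearts.

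Smtn (ENSMUSG00000020439, chr11:3517523-3540612, minus strand) encodes smoothelin, an actin-binding protein of contractile smooth muscle that striated muscle also makes. It was measured at 295.9, 304.3, 225.7, 187.4 and 228.1 CPM in controls 1 to 5 and at 155.6, 214.1, 168.4 and 135.6 CPM in cKO 1 to 4. Only cKO 2 exceeded a control library, control 4. Smtn fell by 0.56 on the log2 scale (± 0.16 SE, edgeR adjusted p = 0.0414), from 248.3 ± 50.1 to 168.5 ± 33.3 CPM (SD, n = 5 and 4). This result lost its adjusted p under 0.05 when control 1, 2, 3 or 5 or cKO 1, 3 or 4 was left out, with an adjusted p of up to 0.105 and a log2 fold change between -0.70 and -0.47 over the 9 libraries left out in turn. Without control 4 or cKO 2 it passed the fold threshold too, as it did within the Rps3a3-low libraries, at -0.74 with an adjusted p of 0.0204. Smtn shares 714 of 4380 exonic bases with Gm11946 on the other strand, which held 3 to 26 reads a library.

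Lmod1 (ENSMUSG00000048096, chr1:135324807-135368065, plus strand) encodes leiomodin 1, which nucleates actin filaments in smooth muscle. Controls 1 to 5 held 5.24, 3.82, 3.52, 3.40 and 3.69 CPM of Lmod1, and cKO 1 to 4 held 4.23, 5.86, 5.10 and 3.37 CPM. The ranges overlapped, and the log2 fold change was 0.24 (± 0.19 SE, edgeR adjusted p = 0.433). With 108 to 221 reads a library it was among the least abundant of the 10 genes, and it passed the test in 0 of 20 alternative fits, DESeq2 included.

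Des (ENSMUSG00000026208, chr1:75360329-75368579, plus strand) encodes desmin, the intermediate filament protein of muscle cells, which cardiomyocytes make in large amounts. Desmin transcripts were at 906.2, 809.6, 745.6, 727.5 and 721.4 CPM in controls 1 to 5 and at 845.6, 1228, 1041 and 1078.5 CPM in cKO 1 to 4. Only cKO 1 fell within the range of the controls, below control 1. Des rose by 0.42 on the log2 scale (± 0.10 SE, edgeR adjusted p = 0.0152), a 1.34-fold change. Within the Rps3a3-low libraries alone Des changed by 0.28 (adjusted p = 0.393). Des shares 220 of 3754 exonic bases with the antisense gene Gm15179, which held 10 to 38 reads.

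**Figure D2:**
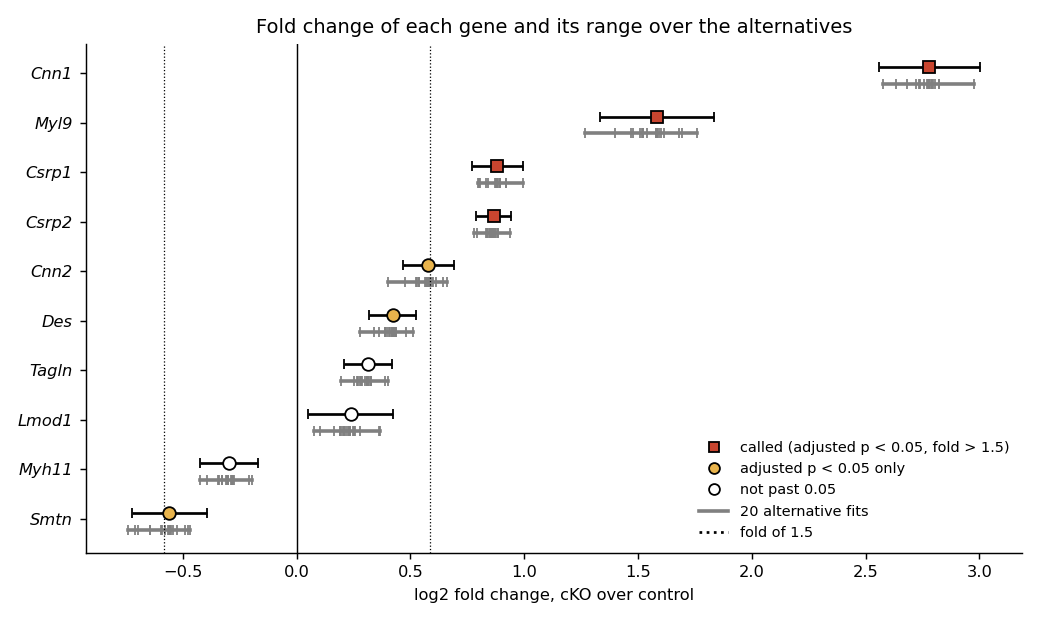
Log2 fold change of each gene in Arid1a cKO over control hearts (x axis). Markers with black bars give the value ± SE of the reported fit, grey ticks the values of 20 alternative fits, and dotted lines a fold of 1.5. Cnn1, Csrp1 and Csrp2 were called in all 20 alternatives and Myl9 in 19, and the grey ticks of each gene stay on one side of 0.

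The cKO libraries differed in the size of the change, and controls varied too. Against the control mean, Cnn1 was 3.86-fold higher in cKO 1, 9.599-fold in cKO 2, 6.55-fold in cKO 3 and 7.50-fold in cKO 4. Myl9 was 1.84-fold, 4.07-fold, 3.27-fold and 2.81-fold higher in the same order. Of the 10 genes, 7 had their highest cKO level in cKO 2 and 6 their lowest in cKO 1. The 6 that were lowest in cKO 1 are Cnn1, Cnn2, Myl9, Csrp1, Csrp2 and Des, which are the 6 genes that rose. Among controls, 7 of the 10 were highest in control 1. The SD was 34.6% of the mean for Cnn1 and 31.1% for Myl9 in cKO hearts, and 12.9% and 25.3% in controls.

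Within the 2 library sets the signs were the same for 9 of the 10 genes. For Cnn1 the change was 2.63 (SE 0.37) in the Rps3a3-low and 2.98 (SE 0.38) in the Rps3a3-high libraries, and for Myl9 it was 1.26 (SE 0.31) and 1.78 (SE 0.35). Csrp1 changed by 0.80 (SE 0.15) and 1.10 (SE 0.17), and Csrp2 by 0.79 (SE 0.10) and 0.99 (SE 0.12). The 4 called genes thus had a positive change in each set. Smtn changed by -0.74 (SE 0.13) and -0.66 (SE 0.17), Myh11 by -0.35 (SE 0.12) and -0.55 (SE 0.15), and Tagln by 0.19 (SE 0.14) and 0.49 (SE 0.17). Cnn2 changed by 0.40 (SE 0.13) and 0.72 (SE 0.16), and Des by 0.28 (SE 0.13) and 0.56 (SE 0.16). Lmod1 changed by 0.16 (SE 0.20) and -0.07 (SE 0.26). These values come from 1 fit with genotype, library set and their interaction, and cKO 4 is the single cKO library of the Rps3a3-high set. The interaction passed for none of the 10 genes, with adjusted p-values from 0.947 to 0.964 in edgeR's test and a smallest unadjusted p of 0.156, and it passed for 2 genes, 0.0131%, of all 15318 tested. The interaction of genotype with Xist class also passed for none of them, with a smallest unadjusted p of 0.163 and adjusted p-values of 0.999, and it passed for 1 gene, 0.00653%, of all tested. These counts are no result about the 10 genes. No other tool was run on the interactions.

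Per kilobase of exon, which allows genes to be set side by side, the control hearts held most Myl9, with a level of 245 ± 61.9 CPM per kb (SD, n = 5), followed by Des with 208 ± 20.7. Csrp1 followed with a level of 65.9 ± 5.14 CPM per kb, Smtn with 56.7 ± 11.4, Csrp2 with 37.8 ± 2.14, Cnn2 with 27.7 ± 3.55 and Tagln with 23.2 ± 2.71. The markers of differentiated smooth muscle came last, Myh11 with 8.38 ± 1.19 CPM per kb, Cnn1 with 1.47 ± 0.190 and Lmod1 with 0.996 ± 0.189. Neighbours in this order whose control libraries overlapped were Myl9 and Des, Csrp1 and Smtn, Cnn2 and Tagln, and Cnn1 and Lmod1. In cKO hearts Cnn1 reached 10.1 ± 3.51 CPM per kb (SD, n = 4), and its mean lay above that of Myh11, 6.82 ± 1.19. By its mean of 38.5 ± 7.61 CPM per kb Smtn held the sixth place in cKO hearts and the fourth in controls. In cKO hearts the libraries of neighbours in the order overlapped for Cnn1 and Myh11, for Smtn and Cnn2, and for Smtn and Tagln.

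Within their families, the 4 called genes took a larger share in every cKO library than in any control. Shares are of the summed CPM per kb of a family in a library. Cnn1 made up 1.84% ± 0.204 (SD, n = 5) of the calponin transcripts in control and 9.79% ± 2.63 (SD, n = 4) in cKO hearts. The acidic calponin Cnn3, which is widespread outside smooth muscle, made up 63.6% ± 3.33 and 49.7% ± 5.35, although its own level changed by -0.02 on the log2 scale (adjusted p = 0.879 in edgeR's test). Neither share overlapped between the groups.

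Csrp1 and Csrp2 went from 16.8% ± 1.15 to 25.2% ± 3.21 and from 9.62% ± 0.144 to 14.3% ± 0.735 of the cysteine-rich family, each without overlap. Csrp3, the muscle LIM protein of cardiomyocytes, went from 73.6% ± 1.10 to 60.5% ± 3.76, while its level was 772 ± 39.8 CPM in control and 774 ± 18.1 CPM in cKO hearts (adjusted p = 0.980 in edgeR's test). Among the regulatory light chains of smooth and non-muscle myosin, Myl9 went from 58.8% ± 4.83 to 79.3% ± 5.14. Its paralogs Myl12a and Myl12b changed by 0.15 and -0.12 on the log2 scale and did not pass (adjusted p = 0.186 and 0.223 in edgeR's test).

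The shares of Tagln, Myh11, Lmod1, Smtn and Des overlapped between the groups. Tagln was 20.7% ± 0.959 of the transgelins in control and 20.9% ± 2.05 in cKO hearts, and Tagln2, the isoform of non-muscle cells, rose in level by 0.30 (± 0.09 SE, edgeR adjusted p = 0.0415). Tagln3, the neuronal isoform, changed by 0.05 (adjusted p = 0.926). Myh11 was 16.4% ± 1.06 of the smooth and non-muscle myosin heavy chains in control and 11.8% ± 2.71 in cKO hearts. The non-muscle heavy chain Myh10 rose by 0.33 (± 0.09 SE, edgeR adjusted p = 0.0357), and Myh9 and Myh14 changed by 0.25 and 0.18 without passing.

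Lmod1 was below 1% of the leiomodins in every library beside the striated muscle isoforms Lmod2 and Lmod3. Of these, Lmod3 rose by 0.19 (± 0.05 SE, edgeR adjusted p = 0.0277) and Lmod2 changed by -0.29 (adjusted p = 0.0898). Smtn was 77.3% ± 2.02 of the smoothelins in control and 74.5% ± 3.83 in cKO hearts. Smtnl2 fell by 0.36 (± 0.11 SE, edgeR adjusted p = 0.0414), and Smtnl1 was called higher but held 2 to 3 reads in each control and 10 to 24 in each cKO library, a ratio of 7.24 per unit of depth with a 95% exact interval of 3.90 to 14.6 that covers counting error only. Des was 53.0% ± 2.07 of the filament proteins measured with it in control and 56.2% ± 2.71 in cKO hearts. Of those proteins, Vim rose by 0.28 (± 0.06 SE, edgeR adjusted p = 0.0102), and Nes and Synm changed by -0.08 and 0.39 without passing.

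**Figure D3:**
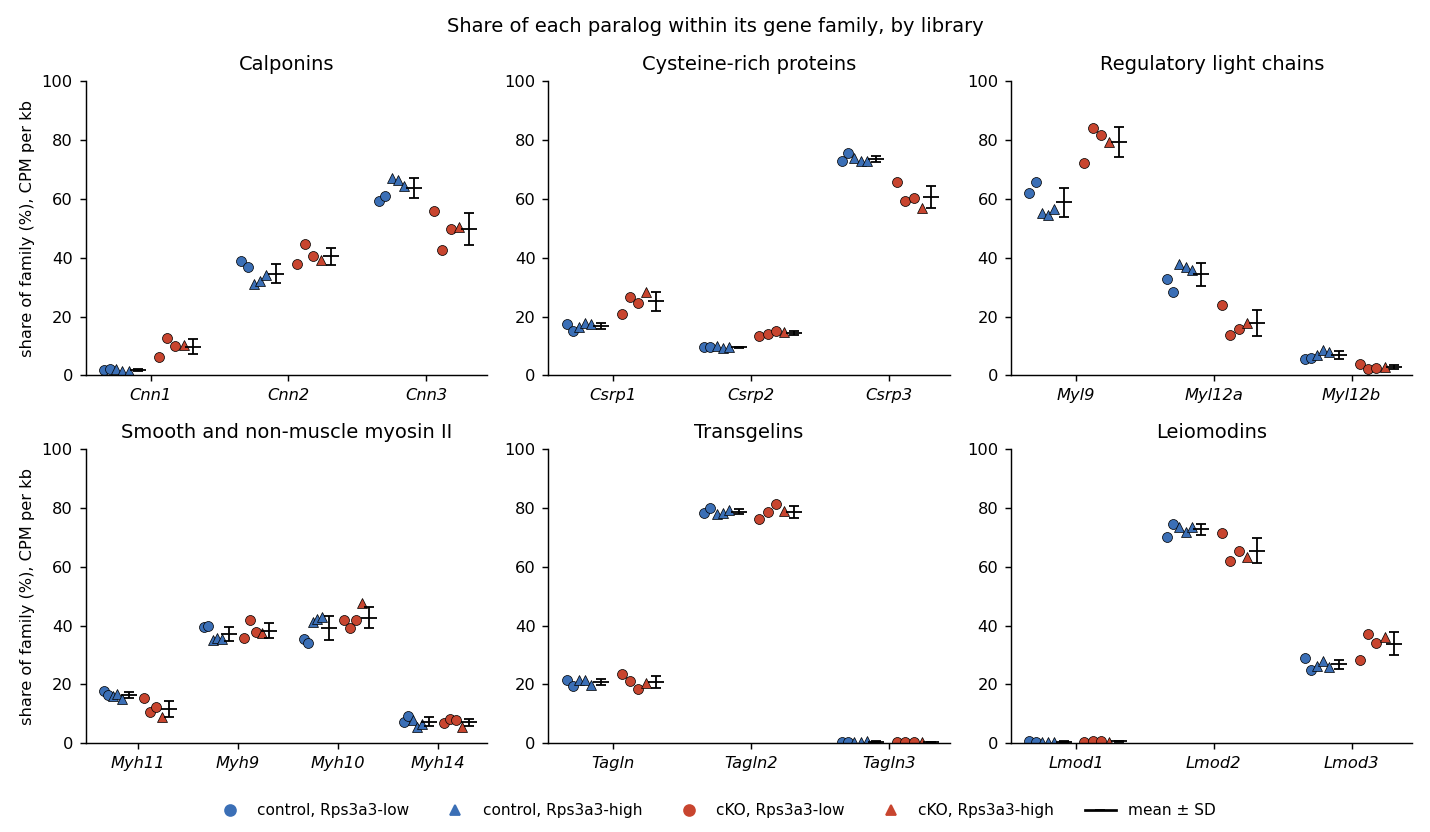
Share of each paralog in the summed CPM per kb of its family, by library, for 6 families, with controls in blue, Arid1a cKO in red and mean ± SD bars. Cnn1, Csrp1, Csrp2 and Myl9 take a larger share in every cKO library than in any control, while the shares of Tagln, Myh11 and Lmod1 overlap.

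The ratio of 2 genes in the same library does not depend on how libraries are scaled. The log2 ratio of Cnn1 to Myh11 was -3.98 ± 0.262 (SD, n = 5) in control and -0.96 ± 0.723 (SD, n = 4) in cKO hearts, and that of Cnn1 to Tagln was -3.51 ± 0.229 and -1.11 ± 0.502. For Myl9 the log2 ratio to Myh11 was 2.13 ± 0.265 in control and 4.0 ± 0.617 in cKO hearts, and that to Tagln was 2.60 ± 0.335 and 3.85 ± 0.492. The groups did not overlap in any of the 4 ratios. The pairs were chosen after the values were seen, as genes that rose the most against genes that did not pass, so the separation was fixed by the choice and no test was made.

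SRF and its partners did not pass the test at the level of their own transcripts. Srf was 111.5 ± 21.3 CPM (SD, n = 5) in control and 105.4 ± 10.96 CPM (SD, n = 4) in cKO hearts, a log2 fold change of -0.08 (± 0.13 SE, edgeR adjusted p = 0.721). Myocd, encoding myocardin, changed by 0.20 (± 0.08 SE, edgeR adjusted p = 0.110). Mrtfa and Mrtfb, encoding MRTF-A and MRTF-B, changed by 0.35 (± 0.14 SE, edgeR adjusted p = 0.113) and -0.18 (± 0.07 SE, edgeR adjusted p = 0.130). Mrtfb lay at 60.1 to 65.5 CPM in controls and at 47.8 to 60.0 CPM in cKO hearts, without overlap.

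Beyond the 10 genes, other contractile and SRF-regulated genes moved in part. Of 22 further genes of the smooth muscle contractile and anchoring apparatus, 6 rose and 1 fell by the adjusted p, in edgeR's as in DESeq2's test. Over all tested genes 8.25% passed as higher and 8.03% as lower in edgeR's test. The median log2 fold change of the 22 genes was 0.19. Acta2, encoding smooth muscle α-actin, which the embryonic myocardium also makes, had the largest rise of this list, from 532.3 to 887.1 CPM in controls to between 2051 and 3296 CPM in cKO hearts. Its log2 fold change was 2.10 (± 0.16 SE, edgeR adjusted p = 1.19e-05). Pdlim7, a LIM protein of actin filaments, rose by 0.79 (SE 0.16) and Tpm2, encoding β-tropomyosin, by 0.59 (SE 0.16). The groups overlapped for Tpm2. Actn1 and Synpo2 rose by less than 1.5-fold and Nexn fell by less than 1.5-fold.

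Among 22 cytoskeletal targets of SRF and the MRTFs, 5 rose and 0 fell, with a median of 0.08. Over all tested genes 8.25% passed as higher and 8.03% as lower in edgeR's test. In DESeq2's test 6 of the 22 rose and 0 fell. At an unadjusted p under 0.05 in edgeR's test 6 were higher and 1 lower, beside 15.2% and 14.5% of all tested genes. The 2 called among them were Ccn1 at a log2 fold change of 0.81 (SE 0.15) and Ccn2 at 0.74 (SE 0.13), which encode matricellular proteins that are also targets of YAP and TEAD. Of 10 immediate early SRF targets 2 rose and 0 fell, beside the same 8.25% and 8.03%, with a median of 0.72. Egr1 rose by 1.17 (SE 0.27) and Egr2 by 1.999 (SE 0.30). DESeq2 passed 3 of the 10 as higher and 1 as lower. In edgeR's test 5 were higher and 1 lower at an unadjusted p under 0.05, beside 15.2% and 14.5% of all tested genes. Of 15 SRF targets of striated muscle, 4 rose and 1 fell in edgeR's test, beside the same 8.25% and 8.03%, with a median of 0.04. In DESeq2's test 4 rose and 2 fell, Atp2a2 and Ldb3. The 4 are Nppa (3.92, SE 0.32) and Nppb (1.31, SE 0.10), encoding natriuretic peptides, Acta1 (2.18, SE 0.56), encoding skeletal α-actin, and Xirp2 (0.83, SE 0.24). For Acta1 and Xirp2 the groups overlapped. Acta1 was 53.6 CPM in cKO 1, within the controls' 43.2 to 86.3 CPM, and 195.7 to 402.2 CPM in cKO 2 to 4. Xirp2 was 163.9 CPM in cKO 1 and 170.3 CPM in control 5. Atp2a2, encoding the calcium pump of the sarcoplasmic reticulum, fell by 0.23 (SE 0.07).

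**Figure D4:**
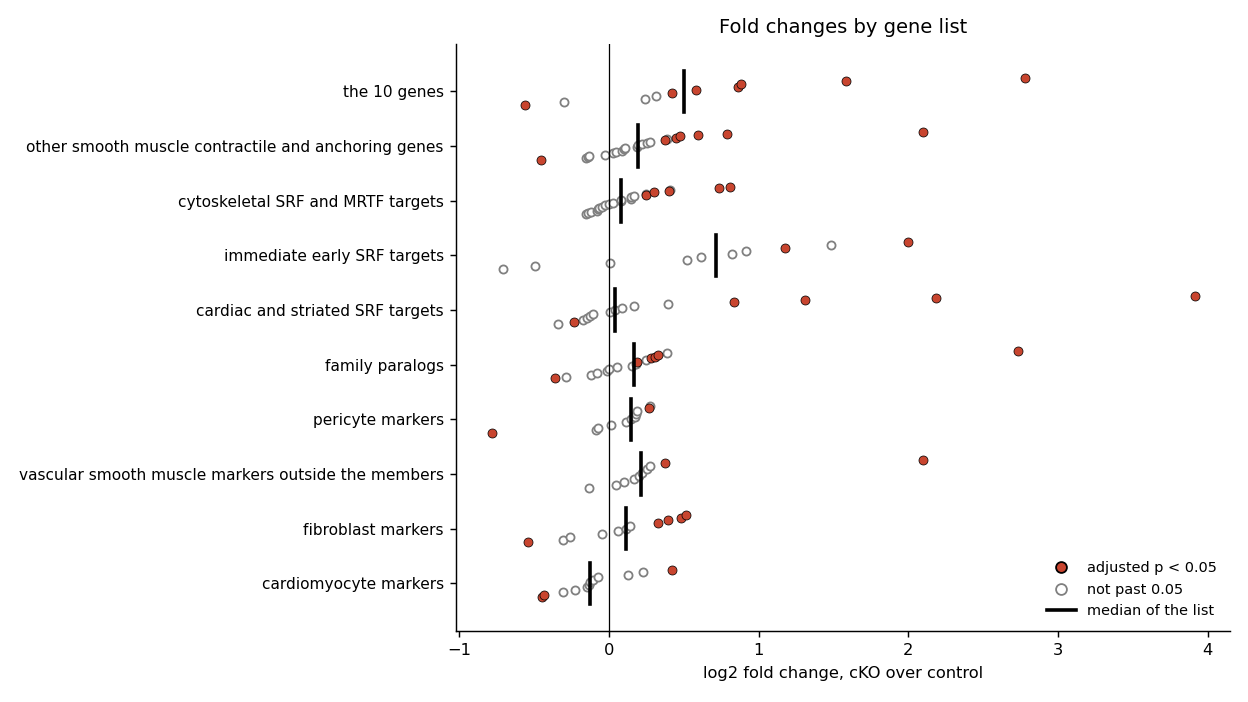
Log2 fold changes of single genes (points; x axis) in each gene list (rows), with filled points for an adjusted p under 0.05 and a bar at the median of the list. The medians are 0.50 for the 10 genes, 0.19 for other smooth muscle genes and 0.08 for cytoskeletal targets of SRF and the MRTFs, and each list holds both filled and open points.

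Markers of the cell types that a ventricle holds were read beside these changes. Outside the 10 genes, 10 markers of vascular smooth muscle summed to 892.1 to 1237 CPM in controls and to 2449 to 3695 CPM in cKO hearts, mostly Acta2. Without Acta2, left out after its values were seen, the sums were 339.6 to 364.5 CPM and 383.4 to 401.3 CPM. Synpo2 had the largest change of the mean CPM within these sums, from 84.4 to 109.6 CPM. Of the 10 markers, 2 rose, Acta2 and Synpo2, and 0 fell, in edgeR's as in DESeq2's test. Over all tested genes 8.25% passed as higher and 8.03% as lower in edgeR's test. At an unadjusted p under 0.05 in that test 3 of the 10 were higher and 0 lower, beside 15.2% and 14.5%. Kcnmb1, Ppp1r14a and Mylk, which are typical of vascular smooth muscle, changed by 0.22, 0.25 and -0.13 without passing. The 11 pericyte markers summed to 2155 to 2243 CPM in controls and 2172 to 2489 CPM in cKO hearts, with Heyl higher by 0.26 (SE 0.05) and Vtn lower, with a log2 fold change of -0.78 (SE 0.16). Rgs5 and Pdgfrb, which define these cells, changed by 0.11 and 0.15 without passing.

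The 11 fibroblast markers summed to 7319 to 8662 CPM in controls and 8852 to 9936 CPM in cKO hearts, without overlap. Of these, Col1a1, Col1a2, Tcf21 and Postn rose and Mfap5 fell, each by less than 1.5-fold. Over all tested genes 8.25% passed as higher and 8.03% as lower in edgeR's test. The 12 cardiomyocyte markers summed to 67139 to 77907 CPM in controls and 61962 to 67787 CPM in cKO hearts. Of these, Des rose and Myl2 and Pln fell in edgeR's test. At an unadjusted p under 0.05 in that test 2 of the 12 were higher and 4 lower, beside 15.2% and 14.5% of all tested genes. In DESeq2's test Des rose and Tnnt2, Myl2, Tnni3 and Pln fell. Myl2, the light chain of ventricular cardiomyocytes, was at 9977 ± 732 CPM in control and 7395 ± 315 CPM in cKO hearts. The part of each cell type in the changes of the 10 genes was not tested. Myh11, a defining marker of smooth muscle, was at least 40.2 CPM in every library.

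**Figure D5:**
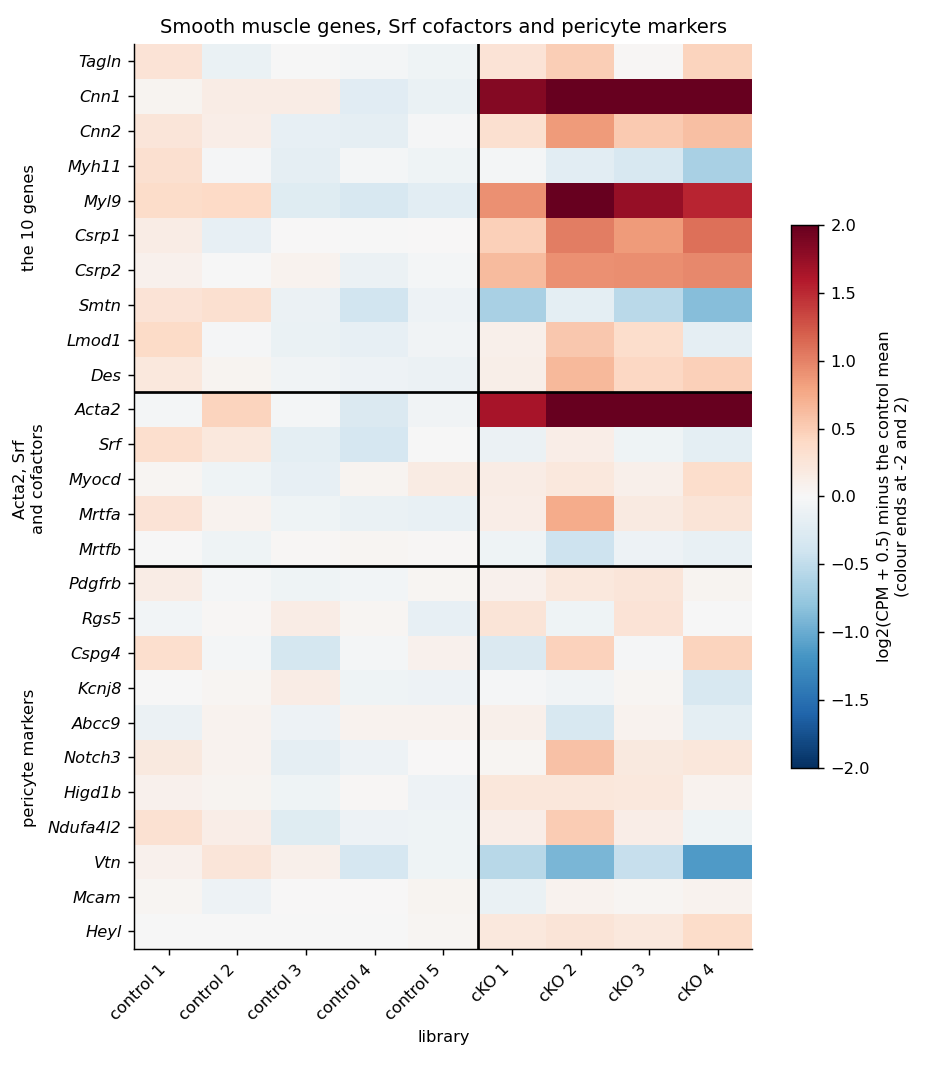
Log2(CPM + 0.5) of the 10 genes, of Acta2 with Srf and its cofactors, and of 11 pericyte markers in each library (columns), as the difference from the control mean (colour). Cnn1, Myl9 and Acta2 are the darkest rows in all 4 cKO libraries, while most pericyte markers, Srf and Myocd stay pale.

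Tagln was also used to find genes with a like pattern, by the Pearson correlation of log2(CPM + 0.5) over the 9 libraries among 11055 tested genes with a mean of at least 5 CPM. The 5 closest were Sec61b (r = 0.953), Pgp (r = 0.951), Fads3 (r = 0.9498), Nob1 (r = 0.941) and Psrc1 (r = 0.934), none of them from the contractile apparatus. The 9 values share genotype and library scaling, and r is given as a description. Like Tagln, these genes were higher in control 1 than in the other controls and lowest in cKO 3 among the cKO libraries.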

How the data were processed

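Ventricular RNA of 5 Arid1a f/f control and 4 aMHC-Cre;Arid1a f/f cKO mice at P7 was sequenced by the authors from TruSeq stranded mRNA libraries as single-end reads of 75 bases, mapped to mm10. The deposited values are raw read counts per gene, in 1 table with a column for each library and 0 other sample columns. The submitters' processing notes name STAR 2.4.2a and HTSeq 0.6.1, without their roles. The gene annotation and the strand setting are not given in the sources used here. The study's methods state another number of controls than the labels, and all 5 labelled controls were used. Total counts ran from 31011055 to 40073801 a library.

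Symbols, coordinates (1-based) and exon lengths came from GENCODE M21 on GRCm38, the assembly of mm10, and 36429 of 38293 identifiers matched, which hold 99.8% of the counts. Counts were fitted with edgeR 4.0.16 (R 4.3.3, quasi-likelihood F test) after filterByExpr at a minimum count of 10, TMM scaling, robust dispersion and genotype as the only term. All tests are two-sided, with Benjamini-Hochberg adjustment over 15318 genes. The thresholds of 0.05 and 1.5-fold follow the study's methods, whose test was DESeq2, run here as an alternative (version 1.42.0). The SE of a log2 fold change was derived from its F statistic. The animals are separate by label, and nothing more is said of their litters, so p-values measure the spread between these libraries. Code was tested on simulated data. A further gene and a gene list are not reported here.

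The 10 genes and the lists were chosen with earlier results of these data known. The text names the 10 genes, their paralogs, Srf, Myocd, Mrtfa, Mrtfb, up to 5 called genes of each further list and the 5 genes most like Tagln. Other list genes that are named were picked after their values were seen. Alternatives were other scalings, filters, covariates and fold thresholds, removal of GC content and length trends (known for 99.06% of tested genes), the Rps3a3-low libraries alone and leaving out each library. Python 3.11.15 made the remaining tables. Mean chi-square values per gene between libraries of a group were at least 9.51, so no 2 libraries agreed within sampling noise.

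Same-numbered libraries of the groups were not treated as pairs in the reported fit, since the labels tie no numbers to litters. Correlations of their deviations from the group means were -0.05, 0.07, -0.01 and 0.30 for numbers 1 to 4. Different numbers were not compared, so these values cannot decide whether the libraries pair. Control 4 and cKO 4, at 0.30, are both Rps3a3-high libraries.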

Additional observations from a re-analysis of the deposited data

Results flagged for a closer look

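Dixon's criterion for a library that stands apart was applied to 45 named genes in each group, 90 groups of libraries in all, and 6 were marked, where chance marks about 1 in 20. Of the 10 smooth muscle genes this held for 1, Lmod1, at 5.24 CPM in control 1 against 3.40 to 3.82 CPM in the other controls. Control 1 also stood apart for the paralogs Tagln2, at 211.3 CPM against 170.0 to 179.6 CPM, and Myl12a, at 545.4 CPM against 433.8 to 461.1 CPM. In cKO hearts, Synm was 11.3 CPM in cKO 4 against 6.22 to 6.84 CPM in the other libraries, Mrtfa was 29.5 CPM in cKO 2 against 19.1 to 20.9 CPM, and Ccn1 was 75.2 CPM in cKO 3 against 56.2 to 58.4 CPM.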

How the results depend on the processing

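Cnn1, Csrp1 and Csrp2 were called higher in all 20 alternative fits, Myl9 in 19, and no gene changed direction in any of them. The number of the 10 genes called higher was 3 in the Rps3a3-low libraries alone, 4 or 5 in the other 19 fits, and 2 with a fold threshold of 2, which left 531 of 1030 called genes over all. The Rps3a3-low libraries alone, which leave 5 libraries, moved most counts: 620 genes were called over all, and 849 passed the adjusted p, against 2493 with all 9 libraries, 3 of the 10 genes passed as higher in place of 6, and 9 passed as higher in place of 17 among 78 pathway genes, those of the smooth muscle and SRF lists outside the 10. There Myl9, Cnn2 and Des lost their adjusted p under 0.05. Smtn decided the lower counts. Of the 10 genes, 1 was called lower with the library set as a term, in the Rps3a3-low libraries and after removal of GC content and length trends, 2 passed as lower with the library set as a term, which added Myh11, and 0 passed with no low-count filter or with log2 Xist as a covariate. Over all genes, the library set term gave 1166 called and 3049 past the adjusted p, and removal of those trends gave 1103 and 3481, against 1030 and 2493 in the reported fit. The cause was not tested. Pathway genes passing as lower numbered 2, 4 with DESeq2, with the library set as a term and after removal of those trends, and 1 with log2 Xist as a covariate. When single libraries were left out, there were 4 to 5 genes called higher and 0 to 1 called lower, 6 to 7 passing as higher and 0 to 1 as lower, 909 to 1171 genes called and 1903 to 2621 passing over all, and 14 to 19 pathway genes passing as higher and 1 to 2 as lower, with 1 when control 2, control 3, cKO 2, cKO 3 or cKO 4 was left out.

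With the replicate number as a block, 888 genes were called and 1730 passed over all, 4 of the 10 genes were called higher and 0 lower, 1 pathway gene passed as lower, Smtn changed by -0.58 with an adjusted p of 0.00582, and Des changed by 0.39 with an adjusted p of 0.0743. By label, libraries of the same number shared only that number. By their levels, numbers 1, 2 and 4 also matched in library set, and numbers 1 and 3 in Xist class.

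Lmod1 and Cnn1 are the least abundant of the 10 genes, with 108 and 107 reads in their lowest libraries, and rest on the fewest reads. Depth is no limit of this kind for the others, which held at least 1329 reads in each library.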

Other observations

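Markers of further cell types are given by list, beside 8.25% of all tested genes that passed as higher and 8.03% that passed as lower in edgeR's test. Of 10 skeletal muscle markers, 4 had enough reads to be tested and 1 was called by edgeR, Mybpc2, encoding fast skeletal myosin-binding protein C, which went from 29.4 ± 8.81 to 134.6 ± 17.8 CPM (SD, n = 5 and 4), a log2 fold change of 2.19 (± 0.21 SE, edgeR adjusted p = 0.00012). DESeq2 called 2, Tnni2 and Mybpc2, and all 4 were higher at an unadjusted p under 0.05 in edgeR's test. Myod1 was at 0 in every library, and Mybpc2 made up most of the summed level of the list, 22.3 to 45.7 CPM in controls and 118.7 to 161.5 CPM in cKO hearts. Of 5 atrial markers tested, Myl7, the atrial regulatory light chain, rose by 1.20 (± 0.22 SE, edgeR adjusted p = 0.00493), Dkk3 rose by 0.31 (± 0.09 SE, edgeR adjusted p = 0.0379) and Stard10 changed by -1.44 (± 0.24 SE, edgeR adjusted p = 0.00176), while Sln and Myl4 did not pass.

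Of 8 endothelial markers 1 passed, Tek, at -0.28 (± 0.07 SE, edgeR adjusted p = 0.0193), and of 5 epicardial markers 1 passed, Wt1, at -0.40 (± 0.09 SE, edgeR adjusted p = 0.0128). With lists this short, 1 gene passing says nothing about the cell type. Of 8 macrophage and 6 erythroid markers 0 passed in edgeR's test. DESeq2 passed 0 macrophage markers and 1 erythroid marker, Alas2, and at an unadjusted p under 0.05 in edgeR's test the counts were 0 and 1. The median log2 fold change was 0.47 for the macrophage and 0.32 for the erythroid markers, with overlap between the groups for every gene.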
